A study of Mus musculus with 34 samples.

Results

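The mouse mitochondrial genome carries 37 annotated genes, and all of them were taken from the count tables by the prefix mt- of their names. They are 37 of the 55341 gene names counted, and they comprise 13 protein-coding genes, 2 ribosomal RNA (rRNA) genes and 22 transfer RNA (tRNA) genes. Of these, 28 lie on the plus strand of the annotated sequence and 9 on the minus strand, the latter being mt-Nd6 and 8 tRNAs. Their level in each library, their levels in hormone-free cells and their response to dexamethasone are described below.

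RNA was measured in mouse mammary adenocarcinoma cells derived from line 3617, in which the endogenous glucocorticoid receptor gene is knocked out (GRKO) and a GFP-tagged mouse receptor (GR) is stably expressed. The receptor is either wild type (WT) or one of 4 mutants, namely D647V, D647V-Tetra, Y551A and Y551A-Dim, where Dim and Tetra are the labels' names for further changes, known as background from substitutions in the DNA-binding domain that hinder dimers and favour tetramers. All 12 groups, controls included, carry the knockout and the GFP tag, were kept in medium with 10% charcoal/dextran-treated serum and 5 µg/ml tetracycline, and had 5% Drosophila S2 cells added at harvest. For 2 hours each line was given ethanol (EtOH) or 100 nM of the synthetic glucocorticoid dexamethasone (Dex). Each receptor form is a single cell line, so a difference between lines is a difference between those lines and cannot be told apart from a difference between clones.

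The 34 libraries fall into 2 runs of library codes, called set 1 and set 2 here. In set 1 are Y551A, Y551A-Dim and WT with 3 Dex and 3 EtOH libraries each. Set 2 holds WT with 2 and 2 libraries, and D647V and D647V-Tetra with 3 and 3 each. The labels name one stranded total RNA kit with ribosomal depletion for a first batch and another for a second, without saying which library belongs to which. Total counts ranged from 44998213 to 70124595 in set 1 and from 60277930 to 79776573 in set 2. At such depth the widest 95% Wilson interval of a protein or rRNA share was ± 0.00375 percentage points, which covers counting error only. The labels speak of triplicates without saying that these were separate cultures, so p-values measure the spread between these libraries. The Dex target genes Sgk1 and Tsc22d3 rose in all 6 line and set combinations, Sgk1 by 0.64 to 2.65 and Tsc22d3 by 0.72 to 2.55 on the log2 scale. Of the mammary epithelial markers, Epcam had no count in any library, the 7 luminal markers summed to 5.39 to 22.3 CPM (counts scaled to library size) and the 5 basal markers to 3.60 to 20.5 CPM. The 6 fibroblast markers, Pdgfrb foremost, summed to 130.7 to 236 CPM, nearly all of it Pdgfrb and Pdgfra. Only 3 of these 6 had a median of at least 1 CPM, Dcn and Lum stood at or near 0, and Fap had no count in any library.

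Mitochondrial DNA is transcribed from both strands into long precursors that run through many genes. The tRNAs that lie between the protein and rRNA genes are cut out of these precursors, which releases the messenger and ribosomal RNAs. The proteins are core subunits of respiratory complexes I, III, IV and V, and the rRNAs build the mitochondrial ribosome, while every other subunit, the polymerase and the processing enzymes are encoded in the nucleus.

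Several members have a near-perfect copy in the nuclear genome, which bears on what a count of them can mean. The first 120 bases of mt-Co2, a subunit of complex IV (chrM:7013-7696, mm10, plus strand), are shown beside the same stretch of Gm28661, an unprocessed pseudogene (chr1:24614885-24615565, mm10, minus strand). Both are transcript sequences of GENCODE vM21, 5′ to 3′, and capitals would mark differing bases.

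mt-Co2: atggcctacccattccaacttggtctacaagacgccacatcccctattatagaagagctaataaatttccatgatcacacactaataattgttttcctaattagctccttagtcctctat
Gm28661: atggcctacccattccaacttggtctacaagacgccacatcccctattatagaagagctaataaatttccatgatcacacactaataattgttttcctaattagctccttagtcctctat

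No base differed here, and 0 of the 681 bases that both transcripts hold differed. In mt-Nd4, a subunit of complex I (chrM:10167-11544, plus strand), the last window shared with an annotated transcript ends at base 876 of 1378. The pseudogene with that window, Gm28439 (chr1:24611535-24612410, mm10, minus strand), is annotated no further. Whether the nuclear sequence stays alike beyond its annotated end was not tested. The next sequence shows its transcript bases 817 to 936, with the bases after the last window shared with the pseudogene Gm28439 in capitals.

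mt-Nd4: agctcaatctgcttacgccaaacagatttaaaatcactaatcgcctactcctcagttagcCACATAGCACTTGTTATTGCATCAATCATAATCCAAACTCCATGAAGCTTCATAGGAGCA

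The tRNAs are 59 to 75 bases long, shorter than the 100-base reads. Of those shown next, mt-Tp, mt-Tm and mt-Tq (the tRNAs for proline, methionine and glutamine) had the highest counts of the class, and mt-Tk (for lysine) had none.

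mt-Tp: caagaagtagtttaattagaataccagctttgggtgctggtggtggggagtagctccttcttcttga
mt-Tm: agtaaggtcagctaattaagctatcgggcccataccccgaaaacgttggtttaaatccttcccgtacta
mt-Tq: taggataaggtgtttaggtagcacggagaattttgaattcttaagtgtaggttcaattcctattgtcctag
mt-Tk: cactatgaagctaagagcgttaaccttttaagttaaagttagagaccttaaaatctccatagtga

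The members differed by orders of magnitude in level, here given as CPM per kilobase of transcript. The 16S rRNA mt-Rnr2 stood highest, with a median of 7764 in set 1 and 4655 in set 2. It was followed by mt-Co1, the catalytic subunit of complex IV, at 3102 and 2769. The 12S rRNA mt-Rnr1 (1319 and 1100), mt-Nd1 of complex I (996 and 975) and mt-Cytb of complex III (988 and 1146) came next, with ranges over libraries that overlapped. The complex I genes mt-Nd2 (171 and 212), mt-Nd5 (124 and 131) and mt-Nd4 (104 and 124) formed a lower tier whose ranges also overlapped. The only minus-strand protein gene, mt-Nd6, stood at 48.8 in set 1 and 114 in set 2.

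A neighbouring block of 6 protein genes was almost uncounted. In set 1 the medians were 7.73 for mt-Co2, 7.12 for mt-Co3, 4.20 for mt-Nd3, 1.54 for mt-Atp6, 0.960 for mt-Atp8 and 0.178 for mt-Nd4l. Together they held between 0.140% and 0.232% of the protein-gene counts of any library. By contrast mt-Co1 alone held 59.9% to 68.1% in set 1 and 54.5% to 61.3% in set 2.

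Of these 6 genes, 5 were also those with the most sequence found elsewhere. Every stretch of 100 bases, the read length, was looked up in the other annotated transcripts. An identical stretch existed for 99.5% of the windows of mt-Co2, 99.9% of mt-Co3, 99.5% of mt-Atp6, 98.5% of mt-Nd4l and 97.6% of mt-Nd3. The share was 60.8% in mt-Nd4 and 30.8% in mt-Co1, and 3.19% in mt-Nd2, and it was 0% in all other members. The matching genes are Gm28661, Gm28437, Gm10925, Gm10222 and Gm28438, which lie side by side on the minus strand of chromosome 1 together with Gm28439 and Gm29216. The exception was mt-Atp8, which had a median of 11 counts and no shared window, and lies between mt-Co2 and mt-Atp6. Only annotated transcripts were searched, so a copy of mt-Atp8 in unannotated sequence would not have been found. The copies had counts of their own: Gm28661 had a median of 919.5 counts per library, against 297 for mt-Co2. The command line in the file headers holds no option that would count reads aligned to several places, and the part of the copies in the low counts was not tested. The values of these 5 genes are therefore uncertain, and so is the split of counts between the first stretch of mt-Nd4 and Gm28439. Further matches lie on chromosome 2, namely Gm13340 to mt-Co1, Gm13341 to mt-Co2 and Gm13339 to mt-Nd2. For mt-Co1, the split of counts in its shared stretches with Gm29216 and Gm13340 is uncertain too. Gm13340 had a median of 5382 counts, against 269781 for mt-Co1.

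**Figure D1:**
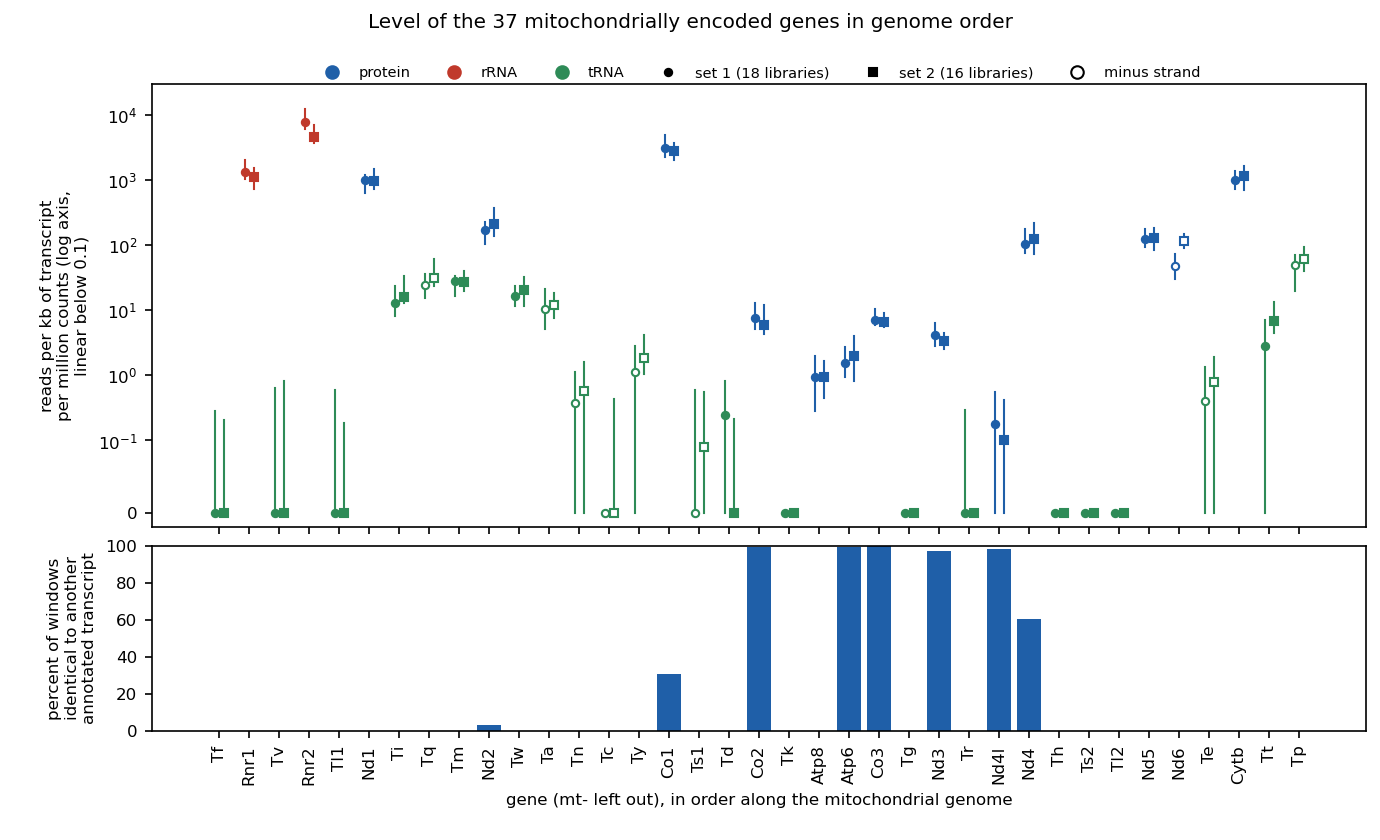
Level of each of the 37 mitochondrially encoded genes (upper panel, CPM per kilobase, log axis that turns linear near 0) and percent of its windows identical to another annotated transcript (lower panel), in genome order. Points are medians and lines the range over the 18 libraries of set 1 or the 16 of set 2, and open points mark the minus strand; mt-Co2 to mt-Nd4l sit low, and all of these but mt-Atp8 and the tRNAs among them have shares above 97%.

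Most tRNAs were close to 0 or at 0. Of the 22, 6 had a count in every library, 11 in some libraries and 5 in none (mt-Tk, mt-Tg, mt-Th, mt-Ts2 and mt-Tl2). For these 5 the limit that a count of 0 allows is 3 counts in each library, for counting error only. There were 8 tRNAs with same-strand neighbours within 3 bases on both sides, and none of these had more than 4 counts in any library. The best counted were mt-Tp, with a median of 217.5 counts, mt-Tm with 125 and mt-Tq with 124. Whether counts of tRNA genes come from tRNAs already cut out of the precursors was not tested.

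After the filter on low counts, 21 members could be tested in set 1 (12 protein, 2 rRNA and 7 tRNA genes) and 22 in set 2 (12, 2 and 8). The other 16 and 15 had too few counts, and mt-Nd4l was the only protein gene among them. Of 16140 genes tested in set 1 and 17535 in set 2, a gene is called changed below at an adjusted p under 0.05 (edgeR quasi-likelihood test, Benjamini-Hochberg over all genes tested).

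Protein genes took between 0.510% and 1.10% of all counts in a library, rRNA genes between 0.686% and 2.15%, and tRNA genes between 0.000603% and 0.00188%. The rRNA share in EtOH was 1.10% ± 0.0109 in WT of set 1, 1.54% ± 0.108 in Y551A and 1.53% ± 0.199 in Y551A-Dim (mean and SD, n = 3). In set 2 it was 0.724% ± 0.0535 in WT (n = 2), 0.763% ± 0.0331 in D647V and 0.803% ± 0.0621 in D647V-Tetra (n = 3). In RNA from whole cultures, more transcript per cell, more mitochondria per cell and a change in the rest of the RNA cannot be told apart from such a share.

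With Dex the rRNA share of D647V stood at 1.13%, 1.17% and 1.25%, against 0.802%, 0.744% and 0.744% in EtOH. In D647V-Tetra it stood at 1.08%, 1.10% and 1.13%, against 0.856%, 0.818% and 0.735%. The Dex and EtOH libraries of these 2 lines did not overlap. WT of set 2 had 0.976% and 0.718% with Dex and 0.686% and 0.762% in EtOH, which overlapped. The 3 lines of set 1 overlapped too, with Dex means of 1.12%, 1.39% and 1.75%.

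**Figure D2:**
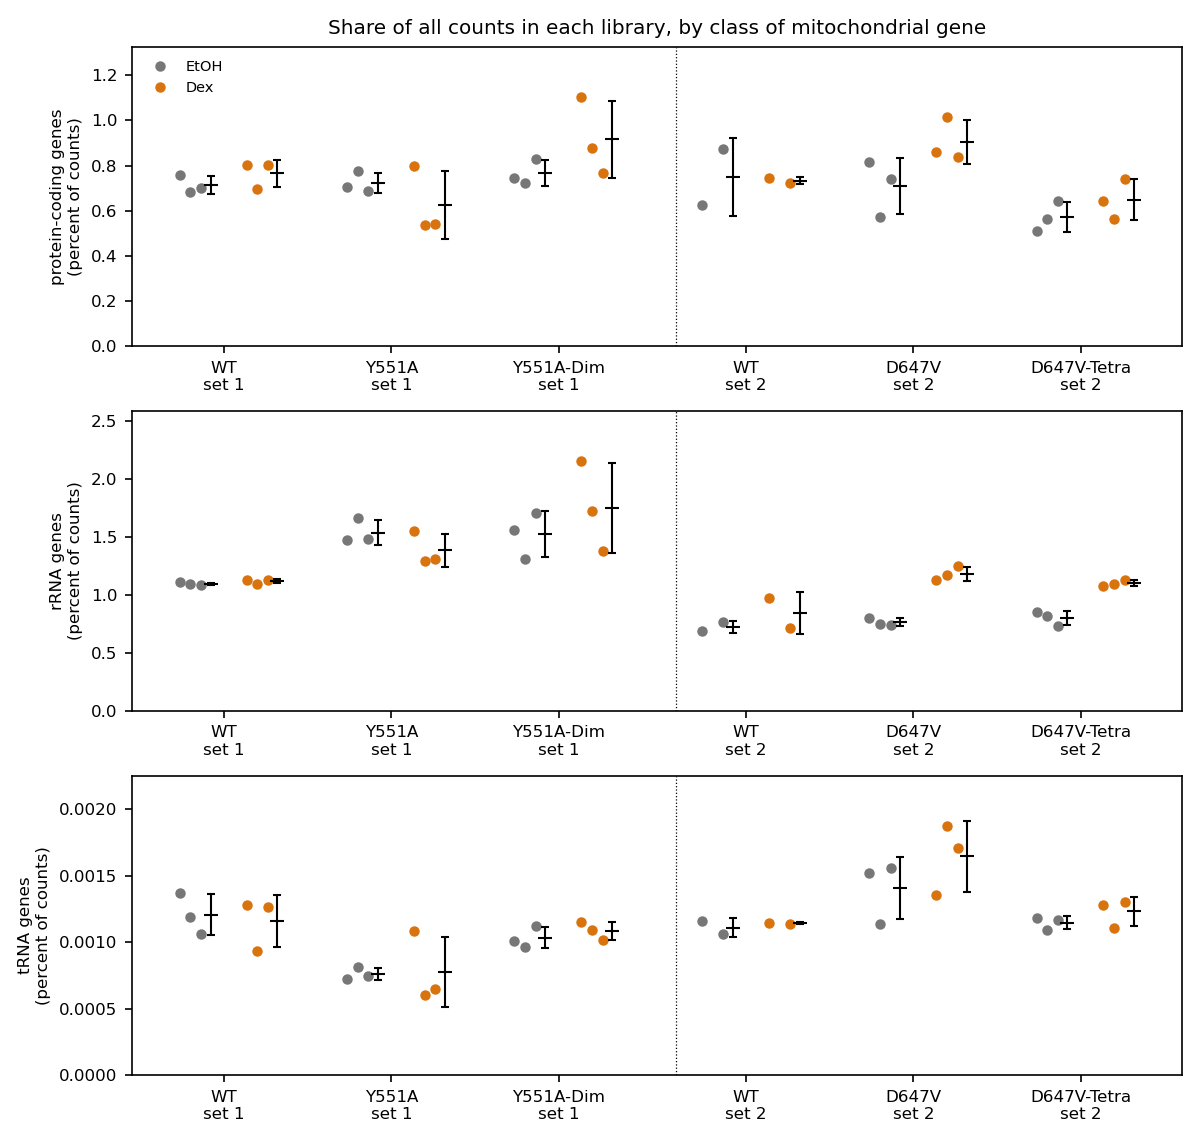
Share of all counts (percent) in the mitochondrial protein, rRNA and tRNA genes, 1 point per library, with the group mean and SD in black (n = 3, or 2 for WT of set 2). The rRNA share of D647V and of D647V-Tetra is higher in all 3 Dex than in all 3 EtOH libraries, while in the 4 other pairs the points overlap.

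In set 2 both rRNAs rose with Dex in D647V and in D647V-Tetra. In D647V, mt-Rnr1 (chrM:70-1024, plus strand) stood at 1303, 1215 and 1435 normalised CPM with Dex and at 855, 846 and 747 in EtOH. For mt-Rnr2 (chrM:1094-2675, plus strand) the values were 10041, 10168 and 10866 with Dex and 7025, 6698 and 6707 in EtOH. Every Dex library was above every EtOH library for both. The rise was 0.69 ± 0.126 for mt-Rnr1 (log2 fold change and SE, adjusted p = 0.00642, edgeR) and 0.60 ± 0.0810 for mt-Rnr2 (adjusted p = 0.00028, edgeR). These were the 2 of 22 members called, where 0.941% of all genes were. Without EtOH replicate 3 or without Dex replicate 3 of D647V, the call of mt-Rnr1 was lost and 1 member remained called.

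The 12 tested protein genes all had a log2 fold change above 0 in D647V, with a median of 0.33 against -0.01 for all genes, but none was called. The lowest adjusted p among them was 0.0854 (edgeR), for mt-Co2 at 0.73 ± 0.181, and this gene's values are uncertain as said. The nuclear copies stood high in one library here, D647V Dex replicate 2, where Gm28661 had 62.8 normalised CPM against 14.3 and 20.6 in the other Dex libraries. Without that library mt-Rnr1 differed by 0.75 and mt-Rnr2 by 0.62.

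In D647V-Tetra the same 2 rRNAs rose. Normalised CPM of mt-Rnr1 were 1348, 1500 and 1325 with Dex and 1134, 893 and 688 in EtOH. Those of mt-Rnr2 were 9432, 9608 and 9735 against 7623, 7203 and 6583. Again no Dex library overlapped with an EtOH library. The log2 fold changes were 0.62 ± 0.125 for mt-Rnr1 (adjusted p = 0.00304, edgeR) and 0.43 ± 0.0809 for mt-Rnr2 (adjusted p = 0.00187, edgeR).

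The complex I genes mt-Nd5 and mt-Nd4 were called as well in D647V-Tetra. For mt-Nd5 (chrM:11742-13565, plus strand) the Dex libraries had 227, 178 and 237 normalised CPM and the EtOH libraries 159, 157 and 157. For mt-Nd4 the values were 177, 123 and 189 against 103, 111 and 110, so that neither gene overlapped. The changes were 0.44 ± 0.128 (adjusted p = 0.0264, edgeR) and 0.59 ± 0.200 (adjusted p = 0.0474, edgeR). With the rRNAs this made 4 of 22 members, which lies near the 19.2% of all genes called in this line. Without any one of EtOH replicates 1 and 3 and Dex replicates 1 and 3, only the 2 rRNAs were called, and without EtOH replicate 2 the call of mt-Nd4 alone was lost.

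Counts of nuclear genes of type rRNA moved with these results. The 354 genes of type rRNA outside the mitochondria, of whose counts 99.8% fall on CT010467.1 (chr17:39846353-39848827), were named after their values were seen. In D647V they summed to 2621, 2682 and 2454 CPM in EtOH and to 1225, 98.7 and 99.7 CPM with Dex. In D647V-Tetra they summed to 1838, 1481 and 1266 CPM in EtOH and to 702, 873 and 724 CPM with Dex. Thus the counts of these genes, which are nearly all those of CT010467.1, were lower in every Dex library of both lines, where the mitochondrial rRNAs were higher. In WT of set 2 they were 6166 and 4152 CPM in EtOH and 2244 and 5915 CPM with Dex. Within groups the direction varied: the library with 2244 CPM had the higher mt-Rnr1 and mt-Rnr2 of its Dex pair, while in the EtOH pair the library with 6166 CPM had the higher mt-Rnr1 and the lower mt-Rnr2. The labels name ribosomal depletion for all libraries, and the part of these values in the mitochondrial rRNA results was not tested.

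**Figure D3:**
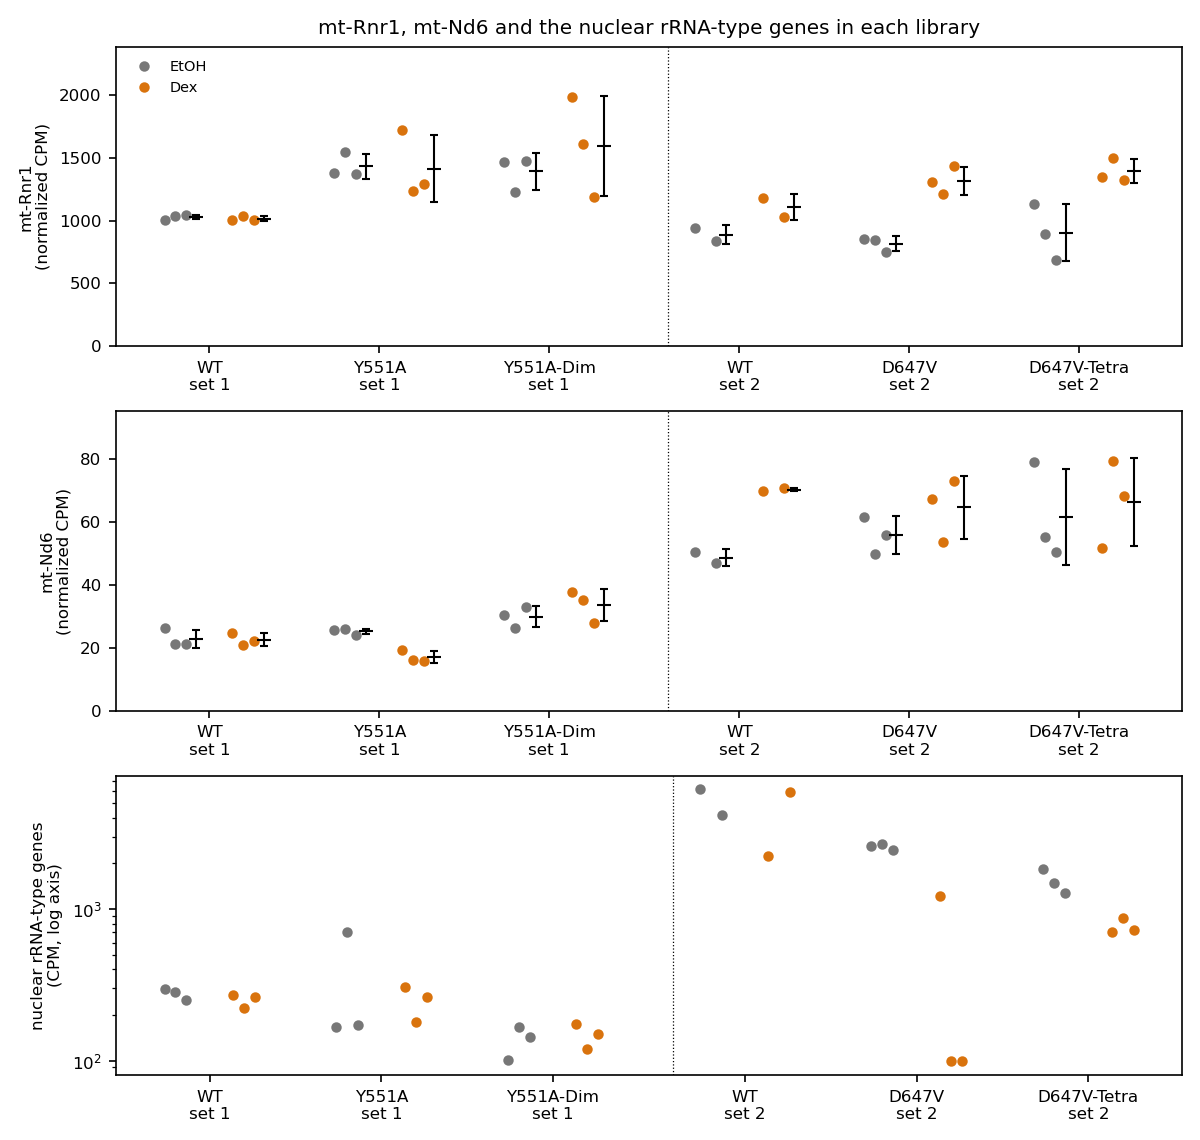
Normalised CPM of mt-Rnr1 and mt-Nd6 and summed CPM of the nuclear rRNA-type genes (log axis) in each library; black marks in the upper 2 panels are group mean and SD (n = 3, or 2 for WT of set 2). In D647V and D647V-Tetra, mt-Rnr1 is higher and the sum of the nuclear rRNA-type genes lower in every Dex library. In Y551A all Dex libraries have less mt-Nd6 than the EtOH libraries.

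In WT of set 2 no member was called, where 1.72% of all genes were. For mt-Rnr1 the values were 1179 and 1032 with Dex and 940 and 834 in EtOH, which did not overlap, and the difference was 0.32 ± 0.153 (adjusted p = 0.551, edgeR). For mt-Rnr2 the difference was 0.25 ± 0.0989 (adjusted p = 0.423, edgeR), and the libraries overlapped. At an unadjusted p under 0.05 stood 2 members, DESeq2 called 0, and without Dex replicate 2 there was 1, mt-Rnr2 at 0.44. The lowest adjusted p was that of mt-Nd6, with 70.0 and 70.8 normalised CPM against 50.6 and 46.9, which did not overlap either, at a difference of 0.53 ± 0.195 (adjusted p = 0.345, edgeR). Of the 22 members, 5 were higher with Dex without overlap and 6 lower, mt-Nd2, mt-Nd4 and mt-Nd5 among the latter. With 2 libraries on each side such a separation carries little weight.

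Whether the rRNA response of the mutants differed from that of WT was tested directly. The difference for mt-Rnr2 was 0.36 ± 0.128 between D647V and WT (adjusted p = 0.692, edgeR) and 0.18 ± 0.128 between D647V-Tetra and WT (adjusted p = 0.380, edgeR). For mt-Rnr1 it was 0.37 ± 0.198 (adjusted p = 0.696, edgeR) and 0.30 ± 0.198 (adjusted p = 0.339, edgeR). No member was called in either comparison, where 0.188% and 4.41% of all genes were; at an unadjusted p under 0.05 stood 4 and 3 members, and DESeq2 called 0 and 1. Nor was any called between D647V-Tetra and D647V, where 0.873% of genes were, 2 members had an unadjusted p under 0.05 and DESeq2 called 1. Single libraries moved these results. Without D647V-Tetra Dex replicate 2, mt-Nd2, mt-Nd4 and mt-Nd5 were called between D647V-Tetra and WT. Without WT EtOH replicate 1, which leaves 1 WT library in EtOH, the same genes differed by 0.895, 1.32 and 0.889. Without WT Dex replicate 1, which leaves 1 WT library with Dex, the rRNA mt-Rnr2 differed from WT by 0.59 in D647V and by 0.41 in D647V-Tetra.

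Averaged over the 3 lines of set 2, both rRNAs rose, mt-Rnr1 by 0.54 ± 0.0782 (adjusted p = 0.000165, edgeR) and mt-Rnr2 by 0.43 ± 0.0504 (adjusted p = 1.74e-05, edgeR). They were the 2 of 22 members called, where 5.48% of genes were. Without WT EtOH replicate 2 there were 4.

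Neither rRNA was called in a Dex response of set 1. In WT, mt-Rnr1 stood at 1003, 1038 and 1006 normalised CPM with Dex and at 1008, 1035 and 1044 in EtOH. The fold change of mt-Rnr1 was -0.02 ± 0.116 and that of mt-Rnr2 0.01 ± 0.0955, and the libraries overlapped for both. No member was called in WT of set 1, where 3.4% of genes were; 1 had an unadjusted p under 0.05 and DESeq2 called 0. The lowest adjusted p was that of mt-Co3 of complex IV, at 0.32 ± 0.142 (adjusted p = 0.379, edgeR). In Y551A-Dim no member was called either, where 1.09% of genes were; 2 had an unadjusted p under 0.05 and DESeq2 called 0. All 12 protein genes there had a log2 fold change above 0, with a median of 0.23 against -0.0044 for all genes. These genes tended to move together, and Dex replicate 1 was highest for mt-Nd1, mt-Nd2, mt-Co1, mt-Nd4, mt-Nd5, mt-Cytb and both rRNAs. Of the members, mt-Atp6 of complex V had the lowest adjusted p at 0.77 ± 0.275 (adjusted p = 0.225, edgeR). In this line mt-Rnr1 differed by 0.20 ± 0.116 (adjusted p = 0.580, edgeR) and mt-Rnr2 by 0.19 ± 0.0955 (adjusted p = 0.471, edgeR), with overlapping libraries. Without Dex replicate 3 of Y551A-Dim, mt-Co1 and both rRNAs were called higher, by 0.40, 0.38 and 0.33. On average over the 3 lines of set 1 no member was called, where 4.71% of genes were; 3 had an unadjusted p under 0.05 and DESeq2 called 0. That count was 1 without WT EtOH replicate 3 or Y551A Dex replicate 1, and 2 without Y551A-Dim Dex replicate 3.

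The one member called in set 1 was mt-Nd6, the complex I subunit on the minus strand (chrM:13552-14070), in Y551A. It stood at 19.4, 16.3 and 15.7 normalised CPM with Dex and at 25.6, 25.9 and 24.2 in EtOH. All Dex libraries lay below all EtOH libraries, and mt-Nd6 fell by 0.56 ± 0.104 on the log2 scale (adjusted p = 0.00142, edgeR). It was 1 of 21 members called, where 1.84% of genes were. Without Dex replicate 1 of Y551A, in which all 6 well counted plus-strand protein genes stood highest, 7 members were called lower. These were mt-Nd6 by -0.66, mt-Tp by -0.80, mt-Nd4 by -0.54, mt-Cytb by -0.45, mt-Co1 by -0.44, mt-Nd5 by -0.36 and mt-Nd1 by -0.29.

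In Y551A-Dim, mt-Nd6 had 37.9, 35.3 and 27.9 normalised CPM with Dex and 30.5, 26.3 and 33.0 in EtOH, which overlapped (0.17 ± 0.0980, adjusted p = 0.575, edgeR). The response of mt-Nd6 differed between Y551A-Dim and Y551A by 0.73 ± 0.143 (adjusted p = 0.00776, edgeR). It was 1 of 21 members called in that comparison, where 0.558% of genes were; without Y551A Dex replicate 1 there were 6 and without Y551A-Dim Dex replicate 3 there were 3, mt-Nd6 among them both times. Between Y551A and WT the difference was -0.54 ± 0.146 (adjusted p = 0.241, edgeR). No member was called there, where 0.18% of genes were, nor between Y551A-Dim and WT, where 1.47% were. At an unadjusted p under 0.05 stood 3 and 0 members, and DESeq2 called 0 in both. Without Y551A Dex replicate 1, mt-Cytb and not mt-Nd6 was called between Y551A and WT, at -0.54 (adjusted p = 0.0344, edgeR). With only the compared groups fitted, mt-Nd6 was called there, at -0.54 (adjusted p = 0.0316, edgeR).

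**Figure D4:**
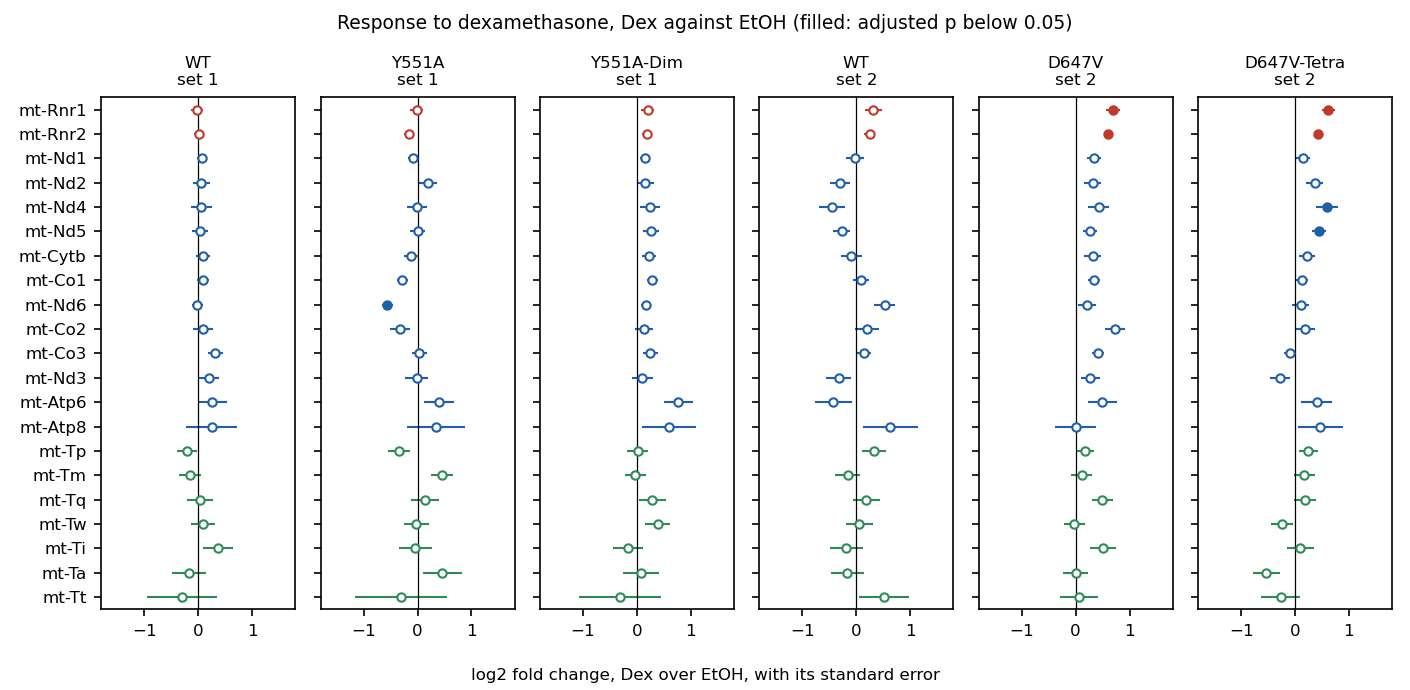
Log2 fold change of the 21 members tested in both sets, Dex over EtOH, with its standard error, for each line and set; filled points have an adjusted p below 0.05 (edgeR). The filled points are mt-Nd6 in Y551A, both rRNAs in D647V, and both rRNAs, mt-Nd4 and mt-Nd5 in D647V-Tetra.

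WT was the one line in both sets. Fitted over both, mt-Nd6 rose by 0.26 ± 0.0584 (adjusted p = 0.0108, edgeR) and mt-Rnr1 by 0.15 ± 0.0381 (adjusted p = 0.0231, edgeR). In set 1 alone mt-Nd6 differed by -0.02 ± 0.102 and mt-Rnr1 by -0.02 ± 0.116, and neither was called in either set alone. In the fit over both, these were 2 of 21 members, where 5.1% of genes were called. The call of mt-Rnr1 was lost without any one of the 6 WT libraries of set 1, without EtOH replicate 2 or without Dex replicate 1 of set 2. The count was 1 without any of the 6 or without that Dex library, 6 without EtOH replicate 1 of set 2 and 4 without EtOH replicate 2. The WT response did not differ between the sets at the threshold for any member, where 0.0181% of genes did. The lowest adjusted p was shared by mt-Nd6 and mt-Rnr1, whose responses were larger in set 2 by 0.53 ± 0.117 and 0.32 ± 0.0761 (adjusted p = 0.315 for both, edgeR). At an unadjusted p under 0.05 stood 6 members and DESeq2 called 2; without EtOH replicate 1 of set 2 there were 7, and without Dex replicate 2 of set 2 there were 2.

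Composition within the mitochondrial counts differed between the sets. Of 1000 protein-gene counts, mt-Nd6 took 2.44 to 4.10 in the libraries of set 1 and 5.41 to 15.2 in those of set 2, which did not overlap. In WT and EtOH alone it took 3.18 ± 0.215 (n = 3) and 6.70 ± 1.78 (n = 2). The ratio of mt-Rnr2 to mt-Rnr1 counts averaged 9.73 in set 1 and 7.62 in set 2, with ranges of 8.01 to 10.8 and 6.23 to 9.56 that overlapped. Set, library kit and the other features of the sets cannot be told apart here. Within set 2 the highest mt-Nd6 was in D647V-Tetra EtOH replicate 1 and Dex replicate 2, at 79.2 and 79.4 normalised CPM. The same 2 libraries had 1417 and 1141 CPM of Lars2, the mitochondrial leucyl-tRNA synthetase, against at most 258 in any other library. The non-coding gene Gm42418 was also highest in these 2, at 12353 and 10472 CPM, and the part of these values in the mt-Nd6 values was not tested. Left out together, they left the changes with Dex of mt-Rnr1 and mt-Rnr2 at 0.75 and 0.47 in D647V-Tetra, and 3 members called.

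The plus-strand protein genes tended to move together from library to library. In 7 of the 12 groups a single library was the highest for all 6 of mt-Nd1, mt-Nd2, mt-Co1, mt-Nd4, mt-Nd5 and mt-Cytb. The 2 rRNAs were highest in the same library in 8 of the 12 groups. In 9 of the 12, mt-Nd6 was highest where mt-Rnr1 was, and in 6 where most of the 6 plus-strand genes were. Within groups the median coefficient of variation of mt-Co1 was 7.76% in set 1 and 9.76% in set 2, and that of mt-Nd4 8.86% and 19.3%. For scarce mt-Atp6 it was 24.0% and 28.0%.

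Lines also differed in hormone-free cells. In set 1 both rRNAs were higher in both mutants than in WT. In EtOH, mt-Rnr1 stood at 1008, 1035 and 1044 normalised CPM in WT, at 1378, 1542 and 1370 in Y551A and at 1469, 1225 and 1477 in Y551A-Dim. For mt-Rnr2 the values were 10150, 10004 and 9866 in WT, 13349, 15035 and 13460 in Y551A and 14154, 12065 and 15488 in Y551A-Dim. No library of either mutant overlapped with WT for either gene. Against WT, mt-Rnr1 was higher by 0.47 ± 0.116 in Y551A (adjusted p = 0.00152, edgeR) and by 0.43 ± 0.116 in Y551A-Dim (adjusted p = 0.00757, edgeR). For mt-Rnr2 the differences were 0.48 ± 0.0957 (adjusted p = 0.000183, edgeR) and 0.47 ± 0.0957 (adjusted p = 0.000649, edgeR). The mutants themselves overlapped for both genes, and mt-Rnr1 differed between them by -0.04 ± 0.116. Summed nuclear rRNA in these EtOH libraries was 297, 282 and 252 CPM in WT, 166, 704 and 172 in Y551A and 101, 166 and 142 in Y551A-Dim, and its part in the difference was not tested. The Y551A library at 704 CPM also had the highest mt-Rnr1 and mt-Rnr2 of its group, and without it both rRNAs were still called higher in Y551A.

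Several other members were lower in Y551A than in WT. The complex I gene mt-Nd1 (chrM:2751-3707, plus strand) had 725, 797 and 727 normalised CPM against 1060, 1005 and 991, and was lower by -0.44 ± 0.0929 (adjusted p = 0.000324, edgeR). Its neighbour mt-Nd2 (chrM:3914-4951, plus strand) had 129, 141 and 125 against 193, 190 and 181, and was lower by -0.52 ± 0.162 (adjusted p = 0.0113, edgeR). Neither overlapped. Of the tRNAs, mt-Ta (alanine) differed by -1.12 ± 0.342, mt-Tp by -0.76 ± 0.190 and mt-Tm by -0.63 ± 0.201 (adjusted p = 0.00917, 0.00188 and 0.0127, edgeR). Counts of mt-Ta were few, at 26, 21 and 29 in Y551A and 90, 59 and 37 in WT. In all, 2 of 21 members were higher and 5 lower in Y551A, where 42.5% of genes differed. Of all genes 23.5% were lower, and the 5 lower members lie near that share. Without WT EtOH replicate 1, only 4 were called, and mt-Nd2, mt-Tm and mt-Ta were lost; mt-Tm was lost also without Y551A EtOH replicate 3 and mt-Ta without Y551A EtOH replicate 2.

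In Y551A-Dim against WT, 3 of 21 members were called, where 23.3% of genes were, namely the rRNAs and mt-Nd6. The latter stood at 30.5, 26.3 and 33.0 normalised CPM against 26.2, 21.2 and 21.3, which did not overlap, and was higher by 0.38 ± 0.0998 (adjusted p = 0.00624, edgeR). Its call was lost without Y551A-Dim EtOH replicate 3. Between the mutants, mt-Nd1 was higher in Y551A-Dim by 0.31 ± 0.0928, mt-Tm by 0.77 ± 0.201, mt-Ti (isoleucine) by 0.82 ± 0.285 and mt-Nd3 by 0.57 ± 0.204 (adjusted p = 0.0113, 0.00427, 0.0314 and 0.0362, edgeR). These 4 of 21 compare with 29% of genes called. Without Y551A EtOH replicate 1 or 3, or without Y551A-Dim EtOH replicate 3, there were 2, and mt-Tm was one of them each time.

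In set 2, 3 complex I genes and mt-Cytb were lower in hormone-free D647V-Tetra than in WT. In EtOH, mt-Nd5 had 159, 157 and 157 normalised CPM in D647V-Tetra, 299, 216 and 216 in D647V and 256 and 336 in WT. For mt-Nd4 the values were 103, 111 and 110, then 252, 146 and 148, and 181 and 278. For mt-Nd2 they were 148, 167 and 173, then 325, 224 and 235, and 210 and 297. All 3 D647V-Tetra libraries were lowest for each of these genes. Against WT, mt-Nd5 was lower by -0.91 ± 0.141 (adjusted p = 0.000317, edgeR), mt-Nd4 by -1.09 ± 0.219 (adjusted p = 0.0023, edgeR) and mt-Nd2 by -0.64 ± 0.170 (adjusted p = 0.0142, edgeR). The complex III gene mt-Cytb (chrM:14145-15288, plus strand) was lower by -0.51 ± 0.173 (adjusted p = 0.0476, edgeR), with overlapping libraries. These 4 of 22 compare with 18.7% of genes called. Without WT EtOH replicate 2 only mt-Nd5 was called, at -0.69, and without D647V-Tetra EtOH replicate 1 mt-Nd5 and mt-Nd4 were.

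Against D647V, mt-Nd5 was lower in D647V-Tetra by -0.63 ± 0.128, mt-Nd2 by -0.68 ± 0.154 and mt-Nd4 by -0.76 ± 0.200 (adjusted p = 0.0108, 0.0185 and 0.0396, edgeR). These were 3 of 22 members, where 4.53% of genes were called. Without D647V EtOH replicate 1, which was the highest D647V library for all 3, none was called, and 1 was without D647V-Tetra EtOH replicate 1 or 3. Leaving out both libraries high in Lars2 also left 1, mt-Nd5. With only the compared groups fitted, the call of mt-Nd4 was lost. Of 22 members, 1 was called between D647V and WT, where 7.36% of genes were. This was mt-Tp, higher by 0.69 ± 0.202 (adjusted p = 0.0487, edgeR), and its libraries overlapped. It was lost without either WT EtOH library or without D647V EtOH replicate 1 or 3, and the count was then 0 except without D647V EtOH replicate 1, where another member was called. The same mt-Nd5 and mt-Nd4 that were low in EtOH in D647V-Tetra are those called higher with Dex in this line, and the 2 comparisons share the 3 EtOH libraries.

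**Figure D5:**
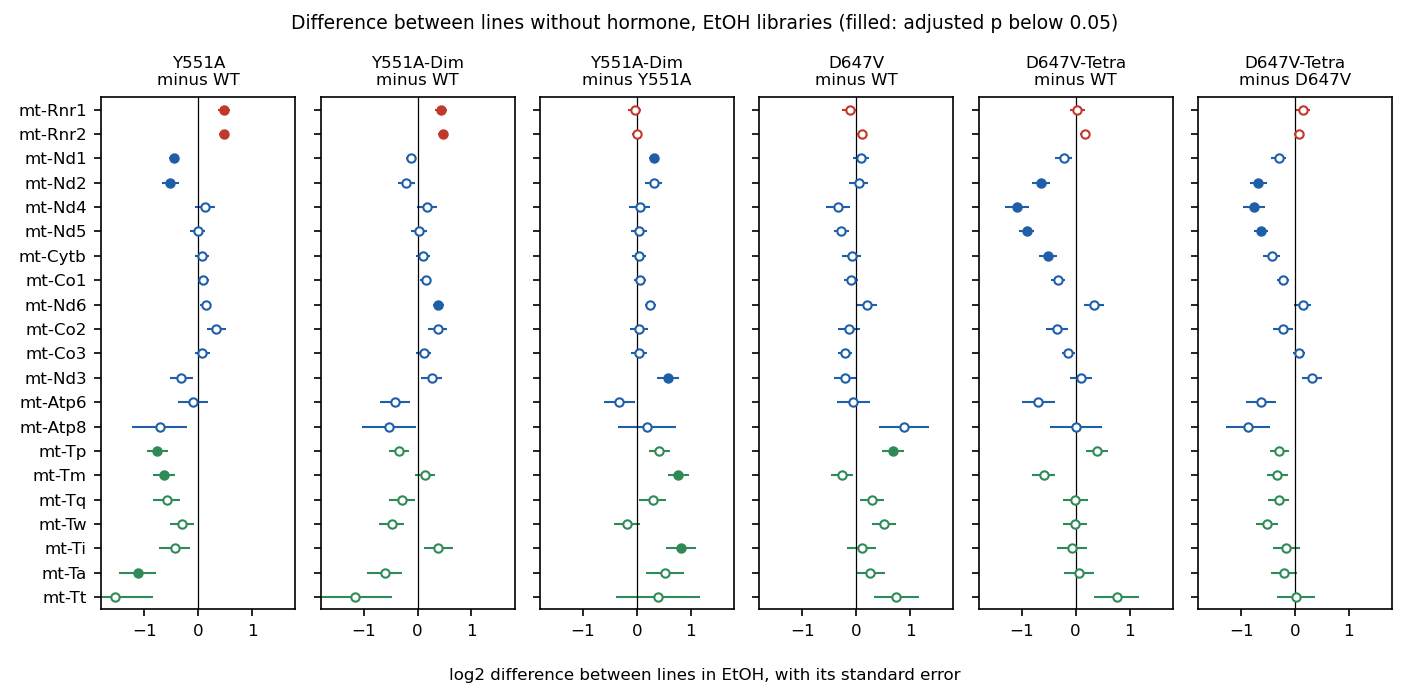
Log2 difference between lines in EtOH with its standard error for the 21 members tested in both sets; filled points have an adjusted p below 0.05 (edgeR). Both rRNAs are higher in Y551A and Y551A-Dim than in WT, and mt-Nd2, mt-Nd4 and mt-Nd5 are lower in D647V-Tetra than in WT and than in D647V.

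The nuclear genes that serve the mitochondrial ones were counted by lists chosen with earlier results of these data known. In the Dex responses of WT, Y551A, Y551A-Dim and D647V, each within its set, none of the 77 tested mitochondrial ribosomal proteins and none of the tested nuclear subunits of complexes I, III, IV and V were called. Other lists had called genes. Of the mitochondrial biogenesis regulators, Ppargc1a was lower in WT of set 1 by -0.38 ± 0.0866 (adjusted p = 0.00748, edgeR). Ppargc1b was lower in WT over both sets by -0.63 ± 0.133 (adjusted p = 0.00688, edgeR). Cdk5rap1, of the tRNA charging and modification list, was higher in WT over both sets by 0.18 ± 0.0486 (adjusted p = 0.0341, edgeR). In WT over both sets 1 of the 77 ribosomal proteins was called, Mrps6, which was lower by -0.21 ± 0.0459 (adjusted p = 0.00813, edgeR). The mean of set 1 had 2, Mrps6 and Mrpl14, both lower, and the mean of set 2 had 1 of the 36 complex I subunits, Ndufc2, also lower. In D647V-Tetra, where 7.89% of genes were lower, 26 of 77 ribosomal proteins, 21 of 36 complex I, 5 of 9 complex III, 9 of 11 complex IV and 11 of 16 complex V subunits fell and none rose. The median log2 fold change was -0.18 for the ribosomal proteins and -0.22 for complex I, against -0.0012 for all genes. Examples are Mrpl57 of the ribosome at -0.29 ± 0.0643 (adjusted p = 0.00556, edgeR), Ndufb6 of complex I at -0.33 ± 0.0694 (adjusted p = 0.00396, edgeR) and Atp5j2 of complex V at -0.30 ± 0.0604 (adjusted p = 0.00307, edgeR). The called mitochondrially encoded complex I genes mt-Nd4 and mt-Nd5 had the opposite sign in the same libraries. Not called were mt-Nd1, mt-Nd2 and mt-Nd6, at 0.15, 0.37 and 0.11, and mt-Nd3, at -0.28. The calls of mt-Nd4 and mt-Nd5 depended on single libraries, as given above. Genes of other lists went both ways in D647V-Tetra. Pprc1 was higher by 0.51 ± 0.0993, Cdk5rap1 by 0.23 ± 0.0589 and Mars2 by 0.20 ± 0.0585 (adjusted p = 0.00242, 0.0124 and 0.0251, edgeR). Tfam was lower by -0.18 ± 0.0486 and Esrra by -0.24 ± 0.0671 (adjusted p = 0.0183 and 0.0203, edgeR). In that response 7 of 14 nuclear structural non-coding RNAs, such as Scarna2 at -0.50 ± 0.118 (adjusted p = 0.00914, edgeR), were lower too, with a median of -0.66, and the part of this in the other lists was not tested.

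In EtOH the ribosomal proteins were lower in Y551A than in WT in 58 of 77 cases, where 23.5% of all genes were lower, and in none higher. Lrpprc, which stabilises mitochondrial messenger RNAs, was lower by -0.35 ± 0.0373 (adjusted p = 2.27e-08, edgeR), and Tfam, which packages mitochondrial DNA and starts its transcription, by -0.30 ± 0.0499 (adjusted p = 1.56e-05, edgeR). The rRNAs mt-Rnr1 and mt-Rnr2 were higher in that same comparison. In Y551A-Dim against WT, 19 of 77 were lower and 3 higher, where 13.3% and 10% of genes were. In D647V-Tetra against WT, 29 of 77 were higher and none lower, where 9.35% and 9.34% of genes were. In that line Tfam was higher by 0.31 ± 0.0549 (adjusted p = 0.000945, edgeR) while mt-Nd2, mt-Nd4, mt-Nd5 and mt-Cytb were lower. The enzymes that modify mitochondrial rRNA and build its ribosome had no called member in the Dex response of D647V, in which mt-Rnr1 and mt-Rnr2 rose, and 1 of 15, Rpusd4, in that of D647V-Tetra, at -0.19 ± 0.0562 (adjusted p = 0.0282, edgeR).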

How the data were processed

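Gene counts per library were deposited by the authors as raw, unnormalised counts made with featureCounts 2.0.3 on the mm10 build and GENCODE vM21, counting reverse-stranded read pairs over exons by gene name, per the file headers. The submitters' processing notes name bcl2fastq 2.17, cutadapt and STAR. The headers hold no option for counting reads aligned to several places, so members with nuclear copies may be undercounted. Library sets were read from the codes in the sample titles.

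The members and the gene lists were chosen with earlier results of these data known. Members were all gene names starting with mt-. From these, called members were named in each comparison, or else the one with the lowest adjusted p, and from each nuclear list up to 2 called genes with the lowest adjusted p. Genes were filtered with edgeR's filterByExpr (minimum count 10), scaled by TMM, and tested with edgeR 4.0.16 (R 4.3.3, limma 3.58.1) by the quasi-likelihood test, 1 fit per library set and 1 for WT over both sets, with Benjamini-Hochberg adjustment over all genes tested and a threshold of 0.05. Normalised CPM are counts over TMM-scaled library size, and each set was scaled separately. Spike-in reads were not used here. On simulated counts with 200 changed genes, genes changed by log2 1 were recovered at 68% in WT of set 1 (15827 genes), 67% in D647V (17177 genes) and 60% in WT of set 2 (17187 genes), and genes changed by log2 0.5 at 65%, 51% and 41%. Alternatives were RLE size factors, library sizes without mitochondrial genes, no filter, a replicate block, DESeq2 1.42.0, fits of the compared groups only, and leaving out each library. Whether equal replicate numbers pair libraries was checked by correlating their deviations from group means.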

Additional observations from a re-analysis of the deposited data

Results flagged for a closer look

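The Dex response of mt-Nd6 differed between Y551A-Dim and Y551A by 0.73 ± 0.143 on the log2 scale (adjusted p = 0.00776, edgeR, adjusted over all genes tested). It is listed here because the same contrast gave different effects in 2 lines, by a test of the difference itself. All 3 Dex libraries of Y551A were below all 3 of its EtOH libraries, while those of Y551A-Dim overlapped.

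Outside the mitochondrial genes, the 7 nuclear copies on chromosome 1 stood at 203 CPM in D647V Dex replicate 2, against at most 64.7 CPM in any other library of set 2. In Y551A-Dim Dex replicate 1 they stood at 101 CPM, against at most 80.2 CPM in any other library of set 1. They are listed because these copies enter no comparison of the report and were above every EtOH library of their set. The part of these counts in the values of the mitochondrial members with which they share sequence was not tested. Groups of 2 or 3 libraries were too small for a search for single outlying libraries.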

How the results depend on the processing

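Counts of called members are given for edgeR's quasi-likelihood test unless another tool is named. Without a filter on low counts, members called with Dex numbered 4 in Y551A, 8 in Y551A-Dim, 6 in WT of set 2, 10 in D647V, 4 and 10 in the means of sets 1 and 2, 7 in WT over both sets and 6 between the WT sets. In EtOH they numbered 12 for Y551A against WT, 9 for Y551A-Dim against WT, 3 for D647V against WT, 7 for D647V-Tetra against WT and 6 for D647V-Tetra against D647V. For differences of response they numbered 2 for Y551A against WT, 4 for Y551A-Dim against WT, 8 for Y551A-Dim against Y551A, 7 for D647V against WT and 6 for D647V-Tetra against WT; the cause was not tested. With DESeq2 the counts were 4 for Dex in D647V, 2 between the WT sets, and 1 each for the response of D647V-Tetra against WT and against D647V. With only the compared groups fitted, the counts were 1 for Dex in WT of set 2, 13 and 7 in EtOH for Y551A and Y551A-Dim against WT, 0 for D647V against WT, and 1 and 2 for the responses of Y551A and D647V-Tetra against WT. With RLE size factors, or with mitochondrial genes left out of the library sizes, the EtOH count of D647V against WT was 0. Leaving out both D647V-Tetra libraries high in Lars2, chosen after seeing the data, gave 1 in EtOH against D647V and 2 for the response against WT. Single members were followed over the settings only where they were called, plus the rRNAs in Dex responses. Of these values 509 kept direction and side of the threshold, 69 lost and 8 gained the call, and none reversed. Members that became called elsewhere enter only the counts above.

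Equal replicate numbers did not pair the libraries, with correlations of deviations from -0.646 to 0.0848. For the best other number the correlations ran from 0.0150 to 0.669, and picking the best favours high values. Whether libraries pair under other numbers was tried only for WT of set 2. With the replicate block, the EtOH count of D647V against WT was 0 and the response count of Y551A-Dim against Y551A was 2. It also ended the call of mt-Nd4 for Dex in D647V-Tetra and in EtOH between D647V-Tetra and D647V, and that of mt-Cytb between D647V-Tetra and WT, and added mt-Nd6 in EtOH between Y551A-Dim and Y551A. Crossing the numbers of WT in set 2, chosen after seeing the data, gave 0 called members for Dex, as did the uncrossed block.

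Leaving out 1 library at a time gave, for Dex, counts of 0 to 0 in WT of set 1, 1 to 7 in Y551A, 0 to 3 in Y551A-Dim, 0 to 1 in WT of set 2, 1 to 2 in D647V, 2 to 5 in D647V-Tetra, 0 to 2 and 2 to 4 in the means of sets 1 and 2, 1 to 6 in WT over both sets and 0 to 7 between the WT sets. In EtOH the counts were 4 to 8 for Y551A against WT, 2 to 3 for Y551A-Dim against WT, 2 to 5 for Y551A-Dim against Y551A, 0 to 1 for D647V against WT, 1 to 5 for D647V-Tetra against WT and 0 to 3 for D647V-Tetra against D647V. For differences of response they were 0 to 1 for Y551A and for D647V against WT, 0 to 3 for D647V-Tetra against WT and 1 to 6 for Y551A-Dim against Y551A. Where WT of set 2 kept 1 library in an arm, that library was assumed to vary like the other groups.

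Shares moved past their SD with another denominator. Without mitochondrial genes in it, the rRNA share in WT of set 1 was 1.139% with Dex and 1.115% in EtOH, and the tRNA share in WT of set 2 with Dex was 0.00116%. Without mitochondrial rRNA and nuclear structural RNA in it, the protein share in WT of set 2 with Dex was 0.775%, and the rRNA share was 1.173% with Dex and 1.15% in EtOH in WT of set 1, 0.7978% in D647V in EtOH and 1.161% in D647V-Tetra with Dex. The tRNA share was then 0.0008058% in Y551A in EtOH, 0.001154% in Y551A-Dim with Dex, 0.001205% in WT of set 2 with Dex and 0.001205% in D647V-Tetra in EtOH. Precision of the scarce members is limited by counts of few reads per library.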
